A study of Caenorhabditis elegans with 6 samples.

Results

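Cys-loop ligand-gated ion channels are receptors built from subunits around a pore that opens when a transmitter binds, and they carry fast synaptic signals. In Caenorhabditis elegans the family is large: acetylcholine opens cation channels on body wall muscle and drives contraction, GABA opens chloride channels on the same muscle and relaxes it, and serotonin, dopamine, tyramine, choline and betaine have channels of their own. The genes described here are the rows of the deposited count table whose names are acr, lgc or ggr with a number, or are unc-29, unc-38, unc-49, unc-63, lev-1, lev-8, eat-2, deg-3, des-2, exp-1 or mod-1. The rule found 88 genes among the 22407 genes with counts: 21 acr genes, 56 lgc genes, 0 ggr genes and the 11 genes with names of their own. The rule uses gene names alone.

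RNA was sequenced from pools of whole worms of the strain AM140, which carries rmIs132 [unc-54p::Q35::YFP], a stretch of 35 glutamines fused to yellow fluorescent protein and driven by the body wall muscle myosin promoter of unc-54. All 6 libraries share this transgene. Worms of 2 successive generations were fed HT115 bacteria at 20 °C. The bacteria carried an empty vector in 3 libraries (EV) and a construct for RNA interference against the 3′UTR of gtr-1, a gene for a predicted G protein-coupled receptor, in the other 3 (gtr-1 RNAi). The parents were bleached on adult day 1, and their progeny were washed daily and harvested on adult day 6. Each library held between 33254426 and 41902475 counts. The design text speaks of 3 sets of worms. Since separate cultures are not stated in the labels, the replicate spread behind each p-value may be technical. In whole worms, fewer cells of a type and less RNA per cell cannot be told apart.

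In the libraries labelled gtr-1 RNAi, transcripts of the targeted gene were not reduced. gtr-1 had 16, 25 and 20 counts in the EV libraries and 20, 24 and 19 in the gtr-1 RNAi libraries, with a log2 fold change of -0.01 ± 0.28 (SE; adjusted p = 0.986, edgeR). Its 95% interval, -0.66 to 0.64, is wide at these counts, and the direction turned under DESeq2. One library also stood apart from its group: on the first principal component, which took 72.7% of the variance, the EV libraries lay between -40.6 and -19.2, gtr-1 RNAi replicates 1 and 2 lay at 41.8 and 59.9, and gtr-1 RNAi replicate 3 lay at -6.62. Counts of called genes are therefore also given without gtr-1 RNAi replicate 3. That library was singled out from these same data, as the one of its group nearest EV. Calls and p-values without it are thus no separate support for a difference. Over all genes, edgeR called 0 in 6 libraries, and 1308 higher and 2236 lower without that library.

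Levels were compared between genes as counts per 1000000 counts of the library (CPM) and per kilobase of exon, averaged over the 6 libraries. lgc-22, a channel gene to which no role is assigned here, was the most abundant member at 24.7 CPM per kb, and it alone made up 21% of the summed CPM of the 88 genes. It was followed by lgc-32 at 6.40, the muscle acetylcholine receptor gene acr-16 at 5.94, lgc-34 at 4.12, the levamisole receptor gene unc-63 at 3.94 and the muscle GABA receptor gene unc-49 at 3.82 CPM per kb. Neighbours in this order from lgc-32 on overlapped in their ranges over the libraries: lgc-32 was at 5.35 to 7.67, acr-16 at 5.19 to 6.41, lgc-34 at 3.19 to 5.92, unc-63 at 3.44 to 4.36 and unc-49 at 3.01 to 4.56 CPM per kb.

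Most of the family was rare in RNA of whole worms. Only lgc-22 reached 10 CPM per kb, 25 of the 88 genes reached 1 and 71 reached 0.1. The filter on low counts kept 64 of the 88 genes, and the 24 genes left out were mostly lgc genes: acr-3, acr-6, acr-14 and acr-23 were the acr genes among them. At the bottom, lgc-16 and lgc-17 had 1 read each over all 6 libraries and 0 in the EV libraries, which allows a level of up to 0.0269 CPM over that group (3 counts, counting error only). lgc-16 and lgc-17 lie in a row of 6 genes, lgc-13 to lgc-18, on chromosome X (WBcel235, X:12109166-12128000), of which only lgc-13 passed the filter, and the totals over all libraries in that row ran from 1 to 124 counts.

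**Figure D1:**
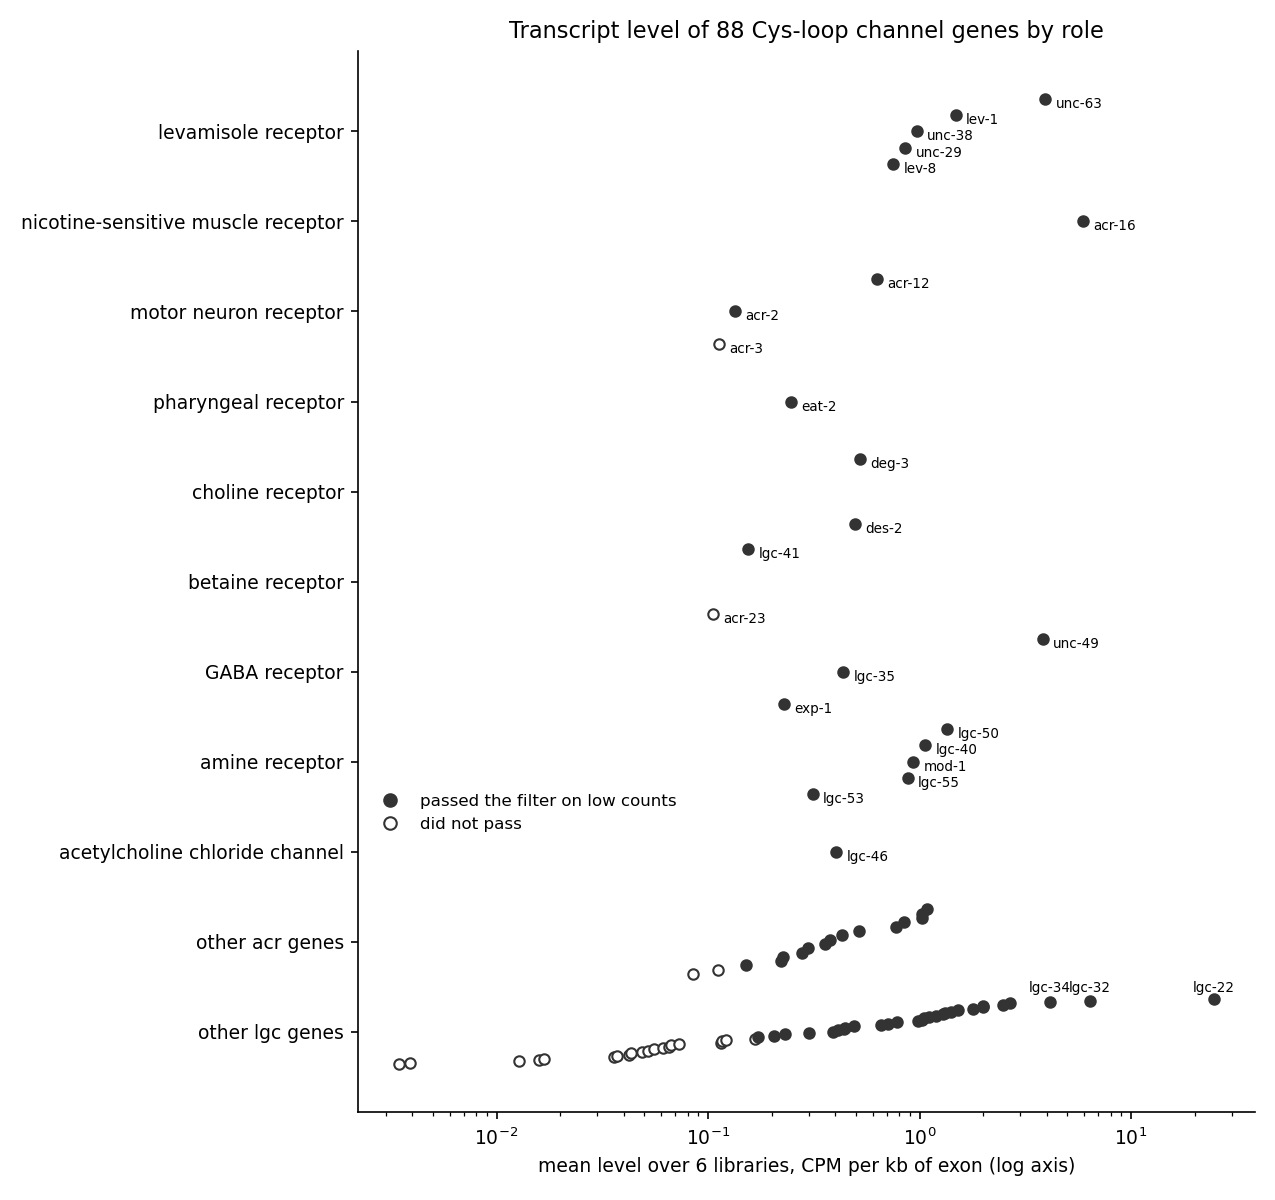
Level of the 88 Cys-loop channel genes, as the mean over 6 libraries in CPM per kb of exon on a log axis, one row for each role; filled points passed the filter on low counts and open points did not. lgc-22 stands alone at 24.7 CPM per kb, acr-16, unc-63 and unc-49 are the highest of the genes listed by role, and the other lgc genes span the whole range.

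The comparison of gtr-1 RNAi with EV asks which channel transcripts differ when worms are raised on the gtr-1 construct. By the edgeR quasi-likelihood test none of the 64 genes passed an adjusted p of 0.05, and neither did any of all 14683 genes tested (0% higher and 0% lower). At an unadjusted p under 0.05, 1 gene (lgc-32) was higher and 8 were lower in gtr-1 RNAi (acr-8, unc-49, lgc-47, lev-8, lgc-21, lgc-20, lgc-55 and lgc-27). The 8 genes are 12.5% of the members tested, against 15.3% of all genes, and the 1 gene is 1.56%, against 12.9% of all genes. The share of lower genes was thus near the background and the share of higher genes was below it.

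DESeq2, run on the same counts, gave calls. It assigned an adjusted p to 48 of the members, and 5 fell: unc-49, lgc-47, acr-8, lgc-21 and lgc-27, which is 10.4% against 7.57% of the 12832 genes with an adjusted p. It called 0 members higher, against 6.65% of all genes. Without gtr-1 RNAi replicate 3, edgeR called 9 of 66 members lower and 0 higher. The 9 were acr-8, unc-49, lgc-47, lgc-21, lgc-27, lev-8, lgc-20, lgc-55 and unc-29, or 13.6%, against 15% of the 14920 genes tested in that fit, and 8.77% of all genes were called higher. Without that library DESeq2 called 7 of 69 members lower and 1 higher, lgc-45. The share of all genes called in that DESeq2 fit is not set beside these counts, so they show nothing particular to the members. The DESeq2 calls depended on the set of libraries. With each library left out of the DESeq2 fit in turn, unc-49 passed in 2 of 6 fits, those that omitted EV replicate 1 or gtr-1 RNAi replicate 3. The other called genes passed only in the fit that omitted gtr-1 RNAi replicate 3, which was 1 of 6 fits for lgc-47 and lgc-27, 1 of the 5 with an adjusted p for lgc-21 and 1 of the 2 with an adjusted p for acr-8. The highest adjusted p over these DESeq2 fits was 0.119 for unc-49, 0.137 for lgc-47 and 0.277 for lgc-27.

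Members with a negative fold change outnumbered those with a positive one. Of the 64 tested, 41 (64.1%) had a negative log2 fold change, against 50.5% of all genes. Their median was -0.13, with quartiles of -0.46 and 0.14, and the median of all genes was -0.0025, with quartiles of -0.23 and 0.13. Without gtr-1 RNAi replicate 3, 41 of 66 members (62.1%) were negative, against 50.8% of all genes, and the medians were -0.18 and -0.0042. The range ran from -1.15 for lgc-21 to 0.52 for acr-19, whose groups overlapped.

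The 2 groups of libraries were apart, with no overlap in CPM, for 11 of the 64 genes in the lower direction (17.2%, against 19.6% of all genes) and for 4 in the higher direction (6.25%, against 16.6%). The 4 higher genes were lgc-32, lgc-45, lgc-39 and lgc-9, of which lgc-39 and lgc-9 were picked out after their values were seen. The lower genes were unc-49, acr-8, lev-8, lgc-47, lgc-21, lgc-20, lgc-55, lgc-46, lgc-22, acr-12 and acr-10. Among the 24 genes that did not pass the filter, acr-23 and lgc-18 were lower and lgc-24 was higher in this sense, at 20 counts or fewer in all for lgc-18 and lgc-24. gtr-1 RNAi replicate 3 was the highest library of its group for 35 of the 64 genes (54.7%), against 40.5% of all genes.

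**Figure D2:**
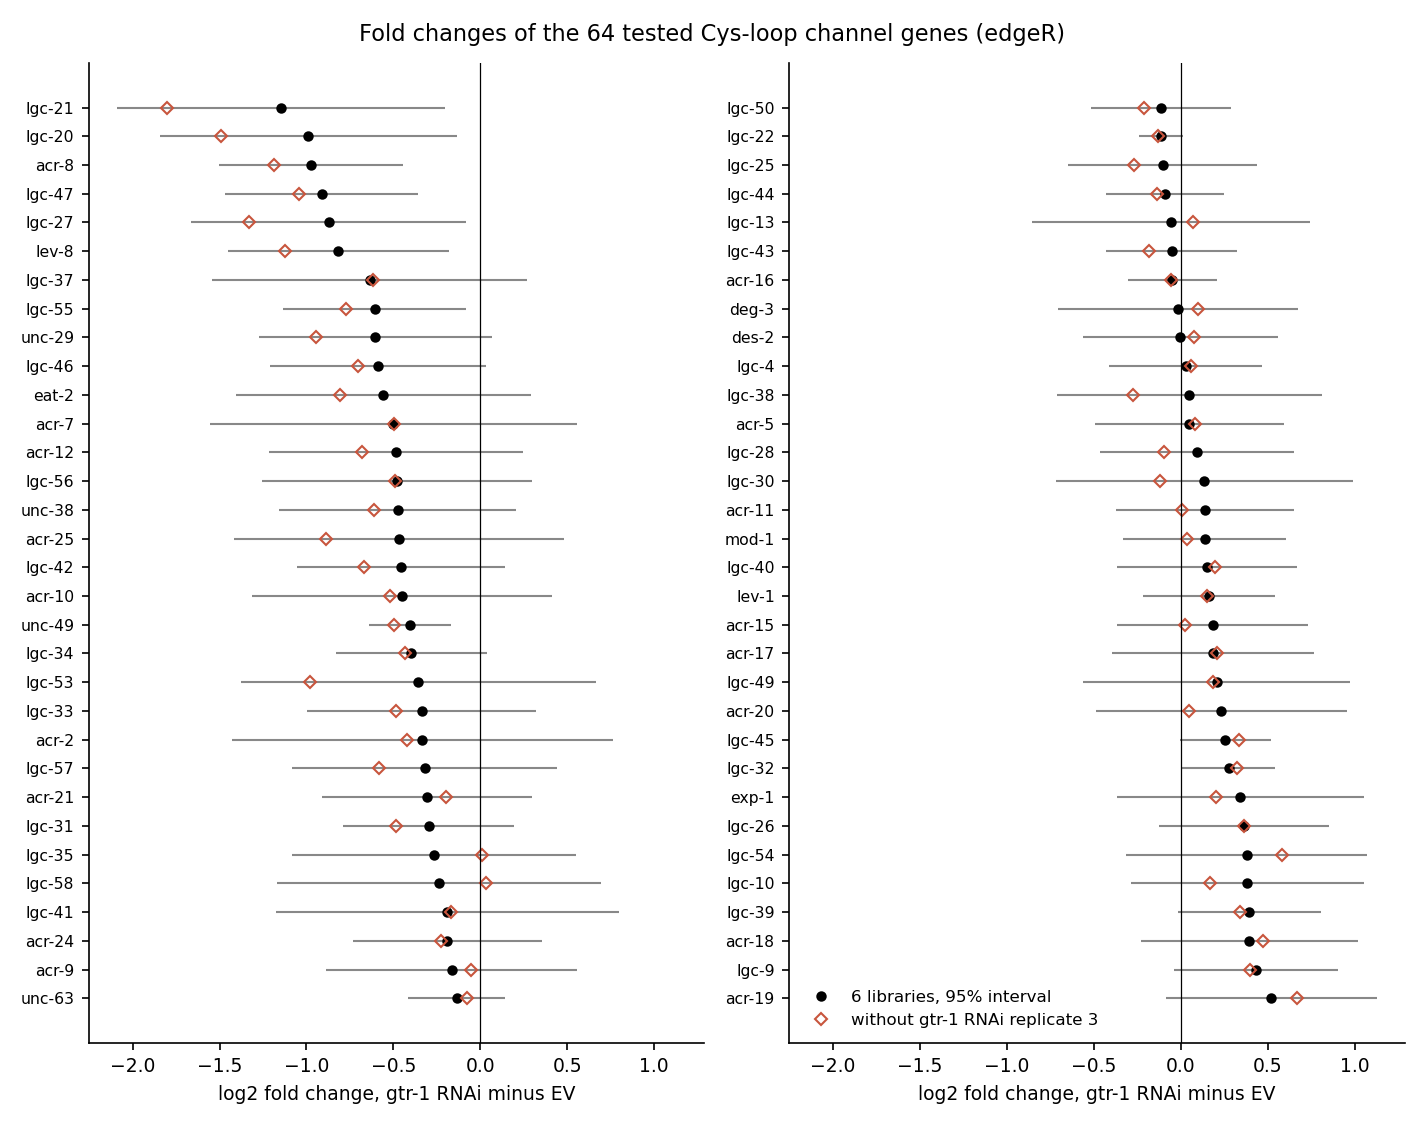
Log2 fold change of gtr-1 RNAi minus EV for the 64 tested genes by edgeR, sorted; black points and bars are the estimate from 6 libraries with its 95% interval, and open diamonds are the estimate without gtr-1 RNAi replicate 3. lgc-21 at -1.15 and acr-19 at 0.52 are the extremes, and for lgc-21, lgc-20 and lgc-27 the diamond lies farther from 0.

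The levamisole receptor of body wall muscle is an acetylcholine-gated cation channel named for the drug that opens it, and its subunits are UNC-29, UNC-38, UNC-63, LEV-1 and LEV-8. All 5 genes were tested, 4 had a negative fold change and none passed the adjusted threshold by either test in 6 libraries. lev-8 (X:11560915-11563707), a subunit needed for the full response to levamisole, had 1.62, 1.82 and 1.55 CPM in the EV libraries and 0.876, 0.652 and 1.30 CPM in the gtr-1 RNAi libraries. All 3 gtr-1 RNAi libraries lay below all EV libraries, with replicate 3 the closest to EV. The log2 fold change was -0.82 ± 0.27 (adjusted p = 0.126 by edgeR and 0.125 by DESeq2), and without gtr-1 RNAi replicate 3 it was -1.13 ± 0.25 (adjusted p = 0.0118, edgeR).

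unc-29, an essential subunit of that receptor, had 1.62, 1.92 and 1.46 CPM in EV and 0.989, 0.752 and 1.54 CPM in gtr-1 RNAi. Replicate 3 of gtr-1 RNAi sat within the EV range and replicates 1 and 2 lay below it. The log2 fold change was -0.60 ± 0.29 (adjusted p = 0.211, edgeR), and it was -0.94 ± 0.25 without that library (adjusted p = 0.0259, edgeR). unc-38, another essential subunit, showed a value of -0.48 ± 0.29 (adjusted p = 0.312, edgeR), with 1.54, 2.18 and 1.95 CPM in EV and 1.67, 0.828 and 1.59 CPM in gtr-1 RNAi. Here gtr-1 RNAi replicate 2 was low and the other libraries of the groups overlapped.

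The other subunit genes had smaller fold changes. unc-63, which also serves in receptors of neurons, had 6.48, 7.09 and 6.53 CPM in EV and 6.70, 6.02 and 5.58 CPM in gtr-1 RNAi, a log2 fold change of -0.14 ± 0.12 (adjusted p = 0.475, edgeR). lev-1, a non-alpha subunit, had 2.71, 2.73 and 2.48 CPM in EV and 2.52, 3.34 and 3.01 CPM in gtr-1 RNAi, a log2 fold change of 0.16 ± 0.16 (adjusted p = 0.538, edgeR). The groups overlapped for both genes. The subunit transcripts were not equal in level: per kilobase, and relative to unc-63 in the same library, lev-8 was at 0.235, 0.241 and 0.222 in EV and at 0.123, 0.102 and 0.218 in gtr-1 RNAi, while lev-1 was at 0.359, 0.331 and 0.326 in EV and at 0.323, 0.476 and 0.464 in gtr-1 RNAi. The ratio for lev-8 was thus lower in every gtr-1 RNAi library than in every EV library, narrowly so for replicate 3. The ratios for the other subunits overlapped between the groups. unc-29 was at 0.252, 0.273 and 0.225 in EV and at 0.149, 0.126 and 0.278 in gtr-1 RNAi. unc-38 was at 0.230, 0.297 and 0.289 in EV and at 0.241, 0.133 and 0.276 in gtr-1 RNAi.

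The summed level of the 5 levamisole receptor genes was 14.6 ± 1.03 CPM in EV and 12.5 ± 0.763 CPM in gtr-1 RNAi (mean ± SD, n = 3), and the ranges, 14 to 15.8 and 11.6 to 13 CPM, did not overlap. The 13 body wall muscle markers overlapped between the groups: they summed to 1629 to 2484 CPM in EV and to 2226 to 2622 CPM in gtr-1 RNAi, with a median log2 fold change of 0.19 and no call by edgeR or DESeq2. One marker, the muscle transcription factor gene hlh-1, was lower in all 3 gtr-1 RNAi libraries, with a log2 fold change of -0.62 ± 0.21 (adjusted p = 0.128, edgeR), and it alone of the 13 was called without gtr-1 RNAi replicate 3 (adjusted p = 0.0224, edgeR). The other acetylcholine receptor of body wall muscle, opened by nicotine and made of ACR-16, showed no difference beyond the spread of the libraries: acr-16 had 11.4, 11.4 and 10.3 CPM in EV and 11.7, 9.46 and 10.8 CPM in gtr-1 RNAi, a log2 fold change of -0.05 ± 0.11 with a 95% interval of -0.30 to 0.21 (adjusted p = 0.799, edgeR).

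acr-8 (X:10412725-10416661) was the member with the smallest edgeR p. Its product belongs with the muscle-type acetylcholine receptor subunits, and in the parasitic nematode Haemonchus contortus it forms part of a levamisole receptor. acr-8 had 1.78, 1.90 and 1.90 CPM in the EV libraries and 0.904, 0.727 and 1.20 CPM in the gtr-1 RNAi libraries. The EV libraries were close together and all gtr-1 RNAi libraries lay below them. The log2 fold change was -0.97 ± 0.23 with a 95% interval of -1.50 to -0.44 (adjusted p = 0.112 by edgeR and 0.0372 by DESeq2). On the opposite strand its exons overlap those of cdk-11.2.

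Among the acetylcholine receptors of other tissues, the motor neuron receptor genes acr-2, acr-3 and acr-12 were rare. acr-12 had 1.35, 1.47 and 1.72 CPM in EV and 1.30, 0.602 and 1.35 CPM in gtr-1 RNAi, a log2 fold change of -0.48 ± 0.31 with a 95% interval of -1.21 to 0.25 (adjusted p = 0.337, edgeR), and its groups were narrowly apart. acr-2 had a log2 fold change of -0.33 ± 0.47 with a 95% interval of -1.43 to 0.76 (adjusted p = 0.673, edgeR), and acr-3, its neighbour on chromosome X, had 6, 11 and 10 counts in EV against 5, 2 and 8 and was not tested. eat-2, whose product drives the pharyngeal pump, had 17, 14 and 21 counts in EV and 11, 9 and 17 in gtr-1 RNAi, a log2 fold change of -0.56 ± 0.37 (adjusted p = 0.342, edgeR).

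The choline receptor genes deg-3 and des-2 lie next to each other on chromosome V and their products assemble together. Both showed almost no difference, with log2 fold changes of -0.01 ± 0.30 for deg-3 (adjusted p = 0.980, edgeR) and -0.0033 ± 0.24 for des-2 (adjusted p = 0.995, edgeR), and 95% intervals of -0.71 to 0.68 and -0.56 to 0.56. Of the betaine receptor genes, lgc-41 had a log2 fold change of -0.19 ± 0.42 (adjusted p = 0.798, edgeR), and acr-23 was below the filter with 6, 13 and 10 counts in EV against 3, 6 and 5 in gtr-1 RNAi. All gtr-1 RNAi libraries lay below the EV libraries for acr-23 in CPM, at counts too low for a test.

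The clearest difference among well-measured members was in the muscle GABA receptor. unc-49 (III:10520762-10532705) encodes the subunits of the GABA-gated chloride channel that relaxes body wall muscle, and with 3562 counts over the 6 libraries it was second to lgc-22 in depth. It had 16.8, 18.1 and 18.7 CPM in the EV libraries and 12.9, 12.4 and 15.2 CPM in the gtr-1 RNAi libraries. All gtr-1 RNAi libraries were below all EV libraries, and replicate 3 was the nearest to EV. The mean was 17.9 ± 0.979 CPM in EV and 13.5 ± 1.46 CPM in gtr-1 RNAi (SD, n = 3), a log2 fold change of -0.41 ± 0.10 with a 95% interval of -0.64 to -0.17 (adjusted p = 0.112 by edgeR and 0.0138 by DESeq2). Without gtr-1 RNAi replicate 3 it was -0.50 ± 0.10 (adjusted p = 0.00696, edgeR). Exons of T21C12.12 on the same strand and T21C12.9 on the opposite strand overlap unc-49, so the reads of these genes may not be fully separate.

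The cation channels opened by GABA were measured at far fewer counts than unc-49. exp-1, which serves the enteric muscles in defecation, had 16, 14 and 10 counts in EV and 14, 17 and 22 in gtr-1 RNAi, a log2 fold change of 0.34 ± 0.31 (adjusted p = 0.483, edgeR). lgc-35 had 34, 36 and 20 counts in EV and 26, 35 and 16 in gtr-1 RNAi, a log2 fold change of -0.27 ± 0.35 (adjusted p = 0.645, edgeR), and 0.01 without gtr-1 RNAi replicate 3. The groups overlapped for both genes, and a difference between these fold changes and that of unc-49 was not tested.

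The genes that make, release and take up GABA were read beside their receptor. None of the 6 passed by edgeR. Of the 4 to which DESeq2 gave an adjusted p, 2 fell and 1 rose, where 7.57% of all genes fell and 6.65% rose. With gtr-1 RNAi replicate 3 left out, edgeR called 3 of the 6 lower, unc-30, snf-11 and unc-47, and 0 higher. In that fit 15% of all genes were called lower and 8.77% higher. unc-30, the transcription factor gene that sets the fate of GABA motor neurons, had 1.25, 1.92 and 1.52 CPM in EV and 0.452, 0.451 and 0.906 CPM in gtr-1 RNAi, a log2 fold change of -1.36 ± 0.33 (adjusted p = 0.112 by edgeR and 0.0201 by DESeq2). snf-11, the plasma membrane GABA transporter gene, had 8.29, 10.4 and 7.73 CPM in EV and 4.66, 3.84 and 6.10 CPM in gtr-1 RNAi, a log2 fold change of -0.86 ± 0.20 (adjusted p = 0.112 by edgeR and 0.00195 by DESeq2). unc-47, the vesicular GABA transporter gene, had 0.744, 1.11 and 0.817 CPM in EV and 0.367, 0.326 and 0.514 CPM in gtr-1 RNAi, with no overlap. Its log2 fold change was -1.14 ± 0.30 (adjusted p = 0.112 by edgeR, with none by DESeq2). gta-1, for the enzyme that breaks GABA down, rose by 0.30 ± 0.12 on the log2 scale (adjusted p = 0.166 by edgeR and 0.0365 by DESeq2), with overlapping groups. unc-25, for the enzyme that makes GABA, was at 0.07 ± 0.15 (adjusted p = 0.776, edgeR).

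**Figure D3:**
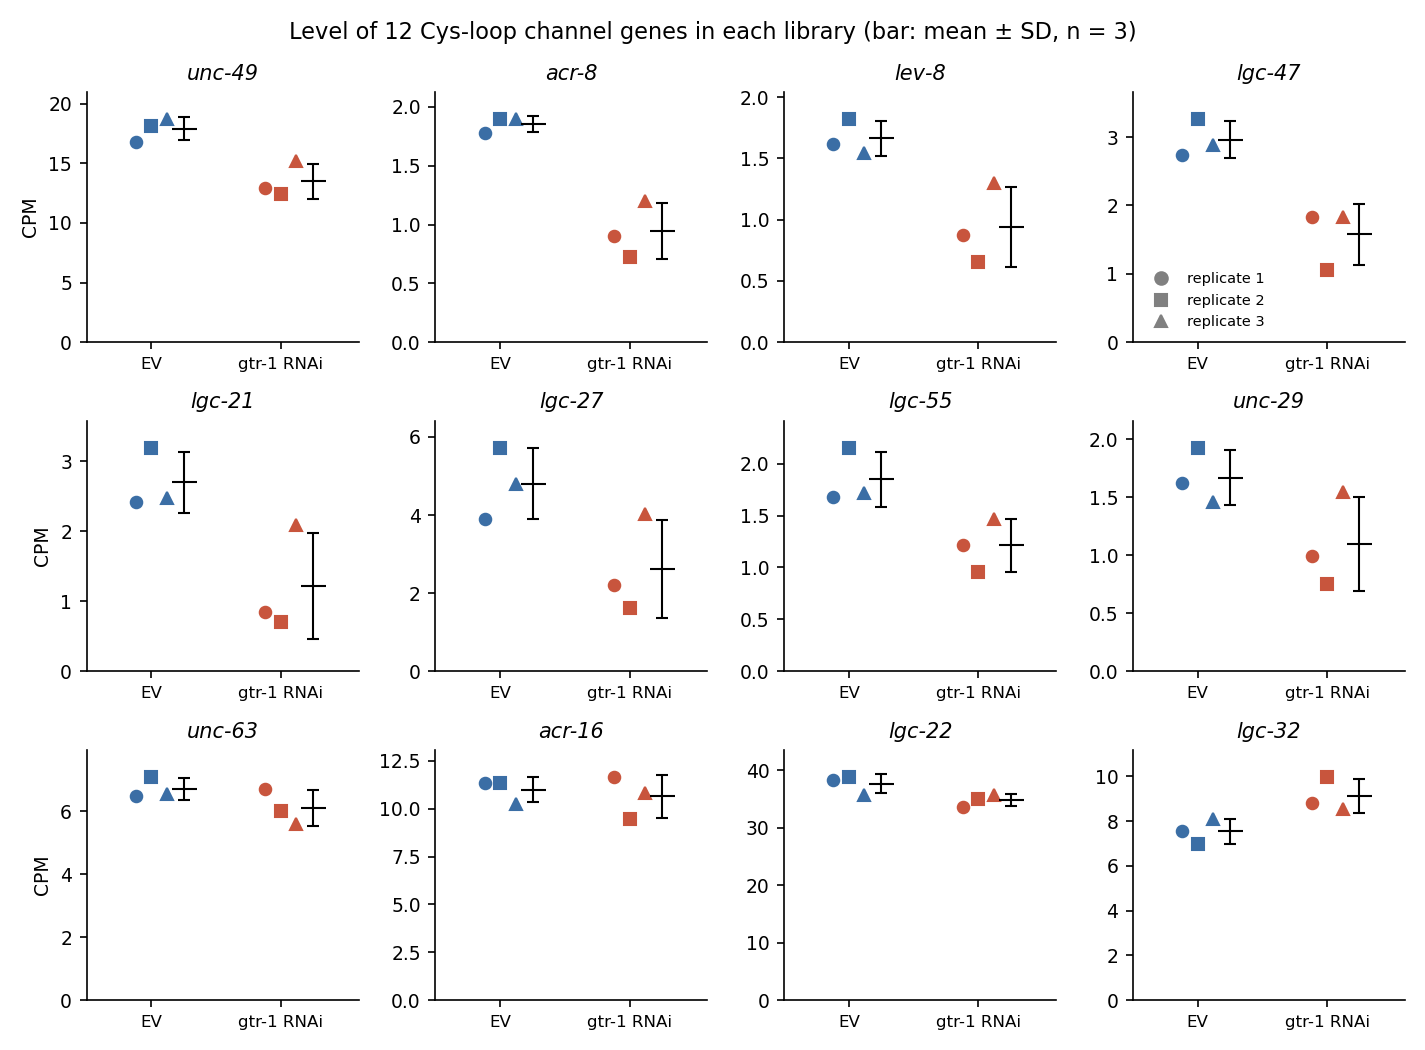
CPM of 12 members in each library, EV in blue and gtr-1 RNAi in red, with the replicate number given by the marker shape and the mean ± SD (n = 3) as a black bar. For unc-49, acr-8, lev-8, lgc-47, lgc-21 and lgc-55 every gtr-1 RNAi library lies below every EV library, for lgc-32 every one lies above, and gtr-1 RNAi replicate 3 (triangle) is often the closest to EV.

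Channels gated by amines include the serotonin-gated chloride channel genes mod-1 and lgc-40, the serotonin-gated cation channel gene lgc-50, the dopamine-gated lgc-53 and the tyramine-gated chloride channel gene lgc-55, which acts in the escape response. None of the 5 passed by edgeR or DESeq2 in 6 libraries, and DESeq2 gave no adjusted p to lgc-53. lgc-55 had 1.67, 2.15 and 1.72 CPM in EV and 1.22, 0.953 and 1.47 CPM in gtr-1 RNAi, so the groups did not overlap. Its log2 fold change was -0.61 ± 0.23 (adjusted p = 0.141 by edgeR and 0.217 by DESeq2), and without gtr-1 RNAi replicate 3 it was -0.77 ± 0.24 (adjusted p = 0.0447, edgeR). The log2 fold changes of mod-1, lgc-40, lgc-50 and lgc-53 were 0.14, 0.15, -0.12 and -0.36, with overlapping groups in each case.

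The genes lgc-46 and lgc-47 belong to the group of acetylcholine-gated chloride channels. lgc-47 (X:9801081-9807662) had 2.74, 3.27 and 2.89 CPM in EV and 1.84, 1.05 and 1.84 CPM in gtr-1 RNAi. All gtr-1 RNAi libraries lay below EV, and replicate 3 was as low as replicate 1. For the other 7 genes that were lower at an unadjusted p under 0.05, replicate 3 was the highest library of its group. The log2 fold change was -0.91 ± 0.24 with a 95% interval of -1.47 to -0.36 (adjusted p = 0.112 by edgeR and 0.0244 by DESeq2). lgc-46 had 0.744, 1.16 and 0.875 CPM in EV and 0.537, 0.602 and 0.710 CPM in gtr-1 RNAi, a log2 fold change of -0.59 ± 0.27 (adjusted p = 0.195 by edgeR and 0.417 by DESeq2). Of the further genes of the group, which the name rule did not take in, acc-4 was at -0.71 ± 0.22 (adjusted p = 0.118, edgeR) and acc-3 at -0.76 ± 0.25 (adjusted p = 0.126, edgeR), each with no overlap between the groups. acc-1 was at -0.41 ± 0.32 (adjusted p = 0.426, edgeR) with overlapping groups, and acc-2 was not tested. Of these, acc-4 was called lower by edgeR without gtr-1 RNAi replicate 3. The members with the next names did not fall in this way. lgc-49 was at 0.21 ± 0.33 (adjusted p = 0.726, edgeR) with overlapping groups, and lgc-48 was not tested. Both were added after their values were seen.

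The lower genes with no role assigned here were lgc-21, lgc-27 and lgc-20, and gtr-1 RNAi replicate 3 was close to EV for each of them. lgc-21 (X:14064313-14067984) had 2.42, 3.19 and 2.48 CPM in EV and 0.848, 0.702 and 2.08 CPM in gtr-1 RNAi. Replicates 1 and 2 of gtr-1 RNAi were far below EV and replicate 3 was just below it. The log2 fold change was -1.15 ± 0.40 (adjusted p = 0.133 by edgeR and 0.0415 by DESeq2), and without replicate 3 it was -1.80 ± 0.24 (adjusted p = 0.00137, edgeR).

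lgc-27 (II:4649085-4653283) had 3.90, 5.72 and 4.78 CPM in EV and 2.20, 1.63 and 4.02 CPM in gtr-1 RNAi. The groups overlapped, because gtr-1 RNAi replicate 3 lay above EV replicate 1. The log2 fold change was -0.87 ± 0.33 (adjusted p = 0.151 by edgeR and 0.0491 by DESeq2), and -1.33 ± 0.23 without that library (adjusted p = 0.0036, edgeR). lgc-20 had 1.20, 1.87 and 1.31 CPM in EV and 0.565, 0.477 and 1.15 CPM in gtr-1 RNAi, where replicate 3 was just below EV replicate 1. Its log2 fold change was -0.99 ± 0.37 (adjusted p = 0.140 by edgeR and 0.122 by DESeq2), and -1.49 ± 0.31 without replicate 3 (adjusted p = 0.00866, edgeR).

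The most abundant member, lgc-22, had a small fold change. lgc-22 (IV:4301306-4304448) had 38.4, 38.9 and 35.7 CPM in EV and 33.6, 35.1 and 35.7 CPM in gtr-1 RNAi, a log2 fold change of -0.11 ± 0.06 (adjusted p = 0.218, edgeR), and EV replicate 3 and gtr-1 RNAi replicate 3 nearly met. lgc-32 (X:672107-676484) was the highest-ranked member in the other direction, with 7.54, 6.96 and 8.11 CPM in EV and 8.82, 9.98 and 8.55 CPM in gtr-1 RNAi, a log2 fold change of 0.27 ± 0.11 (adjusted p = 0.169 by edgeR and 0.190 by DESeq2). lgc-45 had 8.79, 7.90 and 8.72 CPM in EV and 11, 10.4 and 9.01 CPM in gtr-1 RNAi, a log2 fold change of 0.26 ± 0.11 (adjusted p = 0.185 by edgeR and 0.212 by DESeq2). Without gtr-1 RNAi replicate 3 the value was 0.34 (adjusted p = 0.0654, edgeR), and DESeq2 then gave an adjusted p of 0.0496. lgc-34 was at -0.40 ± 0.19 (adjusted p = 0.208, edgeR) with overlapping groups, its EV libraries spreading from 5.22 to 8.38 CPM.

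**Figure D4:**
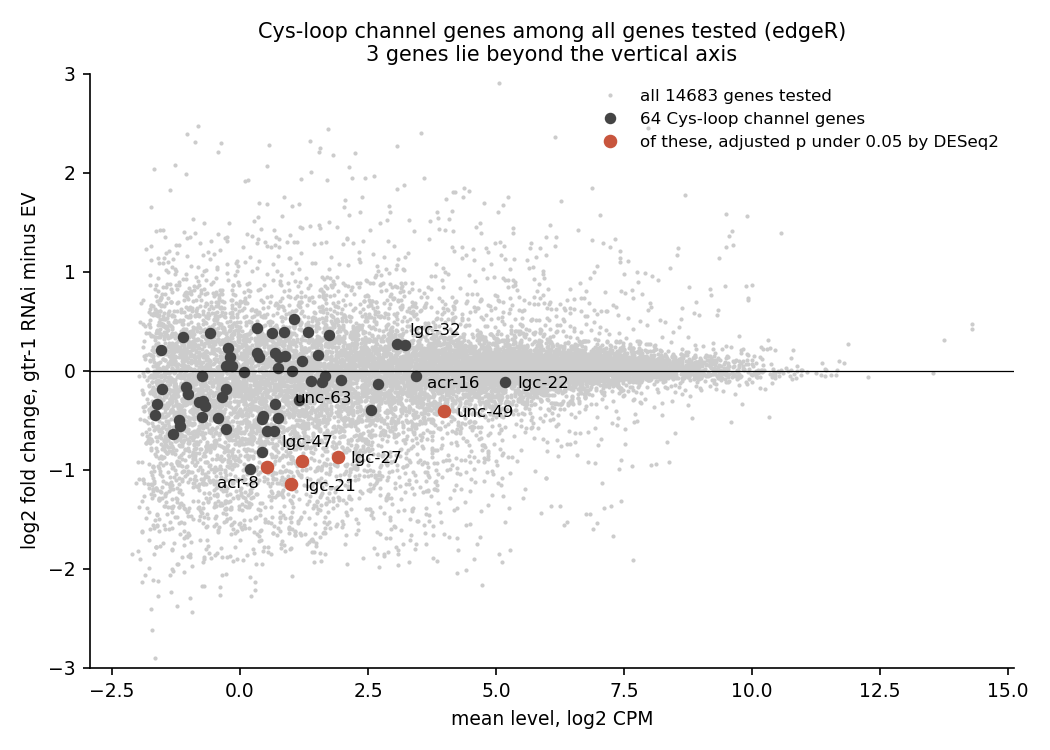
Log2 fold change of gtr-1 RNAi minus EV against mean level in log2 CPM for all 14683 genes tested (grey), with the 64 Cys-loop channel genes in dark points and the 5 that passed an adjusted p of 0.05 by DESeq2 in red; 3 genes lie beyond the vertical axis. The members sit at low levels within the cloud of all genes, and of the 5 in red unc-49 is at the highest level.

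The genes that assemble, traffic and cluster these receptors were measured with them. Of 16 genes on that list 15 were found by name and 13 were tested. None passed by edgeR and 2 fell by DESeq2, ric-3 and nlg-1, the same 2 that edgeR called lower without gtr-1 RNAi replicate 3. Over all genes, 7.57% fell by DESeq2 and 15% were called lower in that edgeR fit. ric-3, a chaperone gene for acetylcholine receptors in the endoplasmic reticulum, had 6.96, 7.42 and 7.58 CPM in EV and 4.41, 3.56 and 6.00 CPM in gtr-1 RNAi, a log2 fold change of -0.65 ± 0.19 (adjusted p = 0.116 by edgeR and 0.0224 by DESeq2). nlg-1, the neuroligin gene, whose product holds GABA receptors at synapses, had 9.67, 10.8 and 9.51 CPM in EV and 7.15, 5.87 and 7.91 CPM in gtr-1 RNAi, a log2 fold change of -0.52 ± 0.14 (adjusted p = 0.112 by edgeR and 0.0165 by DESeq2). unc-50, which levamisole receptors need to reach the surface, had a log2 fold change of 0.01 ± 0.05 (adjusted p = 0.931, edgeR).

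By DESeq2, 7.57% of all genes fell and 6.65% rose. On the side of the transmitters, 1 of 8 genes for acetylcholine fell by DESeq2 and none passed by edgeR. That gene was ace-3, an acetylcholinesterase gene, with 5.68, 6.91 and 6.62 CPM in EV and 2.85, 1.93 and 5.26 CPM in gtr-1 RNAi, a log2 fold change of -0.93 ± 0.35 (adjusted p = 0.147 by edgeR and 0.0272 by DESeq2). In the edgeR fit without gtr-1 RNAi replicate 3, ace-3 was called lower and snf-6, a transporter gene, higher (adjusted p = 0.0254). The acetylcholine synthesis gene cha-1 and the vesicle transporter gene unc-17 were at -0.32 ± 0.20 and -0.38 ± 0.19, with overlapping groups. Of 9 genes for monoamines 1 rose by DESeq2: bas-1, the decarboxylase gene of serotonin and dopamine synthesis, with 24.9, 21.3 and 20.5 CPM in EV and 37.8, 40.2 and 27.5 CPM in gtr-1 RNAi, a log2 fold change of 0.66 ± 0.15 (adjusted p = 0.112 by edgeR and 0.000531 by DESeq2), and it was the 1 called by edgeR without gtr-1 RNAi replicate 3. Of 13 other Cys-loop channel genes, such as the glutamate-gated chloride channel genes, 12 were tested and edgeR called none in 6 libraries. Their median log2 fold change was -0.11. DESeq2 gave 7 of these genes an adjusted p in 6 libraries and called none.

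Markers of whole tissues were read beside the channels, and no marker was called by edgeR in 6 libraries. The 88 genes summed to 172 to 190 CPM in EV and to 153 to 175 CPM in gtr-1 RNAi, with means of 180 ± 8.97 and 165 ± 11.1 CPM (SD, n = 3), so the ranges overlapped through gtr-1 RNAi replicate 3. The 18 pan-neuronal genes summed to 595 to 649 CPM in EV and to 566 to 616 CPM in gtr-1 RNAi. Their median log2 fold change was -0.22, 16 of the 18 were negative, and 2, the synaptic release genes unc-13 and unc-31, fell by DESeq2, where 7.57% of all genes did. Without gtr-1 RNAi replicate 3, edgeR called 7 of the 18 lower, against 15% of all genes. With all 6 libraries, the groups were apart in the lower direction for 8 of the 18, against 19.6% of all genes. The 7 pharyngeal muscle genes had a median log2 fold change of -0.21 with no DESeq2 call. Of these, 2 were called lower by edgeR without gtr-1 RNAi replicate 3, against 15% of all genes. The 10 germline genes had a median of 0.13 with 3 higher by DESeq2, and 7 were called higher by edgeR without that library, against 8.77% of all genes. The 8 intestine genes had a median of 0.23, with 3 higher by DESeq2 and 3 by edgeR without that library. Over all genes, 6.65% were higher by DESeq2 and 8.77% in that edgeR fit.

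The remaining marker lists gave few calls. Among 7 glia genes 4 were tested and 1, ptr-10, fell by DESeq2. The edgeR log2 fold change of ptr-10 was -1.27 ± 0.40 (adjusted p = 0.125 by edgeR and 0.00734 by DESeq2). In contrast, hlh-17, a defining gene of head glia, was near 0 CPM in every library. Summed glia markers were at 16.1 to 17.1 CPM in EV and 12.4 to 15 CPM in gtr-1 RNAi. Lists of 6 hypodermis, 6 sperm and 6 embryo genes had medians of 0.54, -0.04 and 0.13 with no call by edgeR in 6 libraries. DESeq2 gave an adjusted p to 4 of the hypodermis genes and 4 of the embryo genes and called none of them. It gave an adjusted p to 0 sperm genes, so it could call none there. When gtr-1 RNAi replicate 3 was left out, edgeR called 1 hypodermis gene higher and 1 lower, ptr-10 of the glia genes lower, and no sperm or embryo gene. Of all genes, 8.77% were called higher and 15% lower in that fit. The part of the tissue markers and of gtr-1 RNAi replicate 3 in the differences of the channel genes was not tested.

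**Figure D5:**
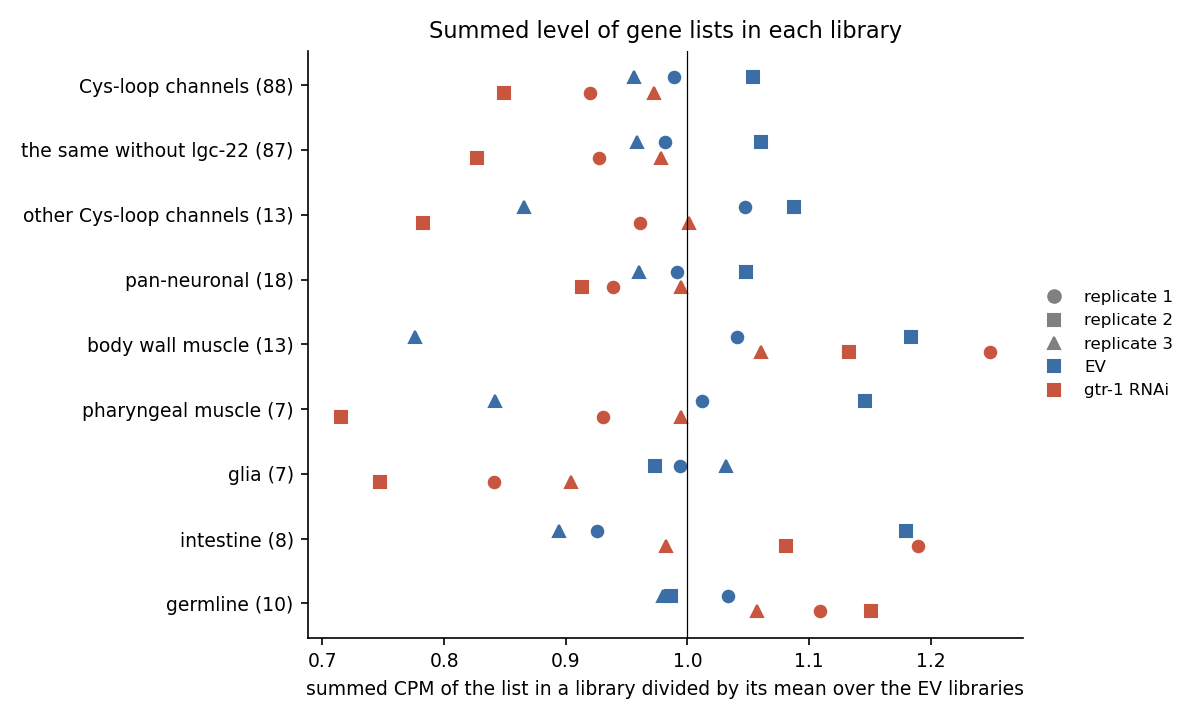
Summed CPM of gene lists in each library, divided by the mean of the EV libraries, with EV in blue, gtr-1 RNAi in red and the replicate number given by the marker shape. For the Cys-loop channels and the pan-neuronal genes alike, gtr-1 RNAi replicate 2 is the lowest library and EV replicate 2 the highest. The same holds for the other Cys-loop channels and the pharyngeal muscle genes. Of the lists shown, the body wall muscle genes spread most widely among the EV libraries.

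Standard errors were on the whole smaller at higher counts, with overlap between the classes. The SE of the log2 fold change ran from 0.23 to 0.47 (median 0.34) for the 21 tested genes with a mean count under 30. It ran from 0.18 to 0.40 (median 0.25) for the 30 genes from 30 to 100 counts and from 0.06 to 0.33 (median 0.15) for the 13 genes above, where lgc-27 had the highest. Exons of 45 of the 88 genes overlap another annotated gene, 39 on the opposite strand and 10 on the same strand. How the counting treated strand is not given in the sources used here. Of the genes lower at an unadjusted p under 0.05, this holds for acr-8, unc-49, lgc-47, lev-8, lgc-55 and lgc-27. It does not hold for lgc-21 and lgc-20.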

How the data were processed

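Stranded mRNA libraries of whole worms were sequenced, per the labels' protocols; STAR, HTSeq and the build WBcel235 come from the submitters' processing notes, with versions not given in the sources used here. The authors' deposited table gives whole-number counts per gene, which were the values tested; its 6 columns of normalized values were not used. Genes were filtered with filterByExpr, scaled by TMM and tested with edgeR 4.0.16 (R 4.3.3; quasi-likelihood F test, no covariate, Benjamini-Hochberg over all 14683 genes, threshold 0.05). CPM use TMM-adjusted library sizes, and exon lengths and overlaps come from the Ensembl annotation of WBcel235. DESeq2 1.42.0, limma 3.58.1 (voom), other scalings and filters, a replicate block and leaving out each library were alternatives. The steps were checked on simulated counts. Floors at 0 counts cover counting error only; intervals of fold changes include the spread between libraries. Named were the members of the role lists, members called by edgeR or DESeq2, the 10 with the smallest edgeR p and the 5 with the highest level per kb. The rule for members uses gene names, but the choice of this family and of the lists was made with earlier results of these data known.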

Additional observations from a re-analysis of the deposited data

How the results depend on the processing

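The count of members called lower was 0 by edgeR and stayed 0 under both other scalings, both other filters, limma-voom, the replicate block, a threshold of 0.1 and without the 10 most abundant genes. It was 5 by DESeq2 and 0 to 9 when each library was left out in turn by edgeR or DESeq2, with 0 to 1 called higher. The 9 and the 1 (lgc-45, DESeq2) came without gtr-1 RNAi replicate 3. Over all genes, DESeq2 called 853 higher and 971 lower, and leaving out 1 library gave 0 to 1552 higher and 0 to 2236 lower. Replicate numbers gave no clear pairing. Same-numbered libraries deviated from their group means with correlations of 0.240, -0.107 and 0.197. Replicates 1 and 3 of gtr-1 RNAi correlated best with the EV library of their own number. In contrast, gtr-1 RNAi replicate 2 correlated best with EV replicate 1 (0.205). With the replicate number as a block, edgeR called 467 genes higher and 492 lower, and 0 members. Members at an unadjusted p under 0.05 numbered 0 in the higher direction with library size alone, by DESeq2 and with the block, and 0 to 3 higher and 3 to 12 lower when a library was left out; the 3 lower came without EV replicate 2 or gtr-1 RNAi replicate 1. Members whose groups did not overlap numbered 5 to 10 higher and 13 to 22 lower in the same runs. The 22 came without EV replicate 1 or gtr-1 RNAi replicate 3. Fewer libraries overlap less often. For the runs with a library left out, the shares of all genes are not set beside these counts by unadjusted p and by overlap. The counts therefore show nothing particular to the members. The median of the members stayed negative in each run, from -0.19 to -0.09. gtr-1 turned to 0.0029 by DESeq2 and lay between -0.16 and 0.12 with a library left out. Of 600 values of the 30 tested named members, 550 kept their direction and side of the threshold, 23 gained a call and 27 turned sign, in 7 genes. des-2 turned to 0.0038 with DESeq2-style size factors, 0.00999 by DESeq2, 0.0215 by limma-voom and 0.0295 with the replicate block, and deg-3 to 0.00137, 0.0189 and 0.0249 in the last 3 of these. With a library left out, the log2 fold changes ran from -0.21 to 0.15 for des-2, -0.17 to 0.34 for deg-3, -0.69 to 0.0202 for acr-2, -0.0198 to 0.35 for lgc-40, -0.51 to 0.12 for lgc-41, -0.12 to 0.037 for acr-16 and -0.52 to 0.0317 for lgc-35. The cause of these changes was not tested.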

Other observations

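The members were unevenly placed on the chromosomes. Chromosome X held 25 of the 88 genes (28.4%), while it holds 13.2% of the genes with counts. Chromosome V held 19 (21.6%, against 26.5% of the genes with counts) and chromosome I 7 (7.95%, against 13.8%), both below their share. Of the 16 tested members on X, 13 had a negative log2 fold change, with a median of -0.29, and the median of all 2173 tested genes on X was -0.10. The 14 tested members on V had a median of 0.16, and that of all tested genes on V was 0.0037. On II, 8 of 12 tested members were negative with a median of -0.36, and on III 6 of 8 with a median of -0.36, while the medians of all tested genes there were -0.00066 and 0.0085. The medians of the members were -0.14 on I and -0.05 on IV. These are descriptions with no test. The share of negative fold changes among all tested genes of each chromosome was not counted, so the counts of negative members have no background here.

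Within 20 kb of each other, 9 groups of members lie side by side. The row lgc-13 to lgc-18 on X is the longest, with 6 genes, and the others are pairs. Levels within a pair differed: acr-15 had 353 counts over the 6 libraries and acr-16, next to it on chromosome V, had 2460. No member passed the filter in 4 of the pairs (lgc-5 and lgc-6, lgc-7 and lgc-8, lgc-1 and lgc-29, lgc-23 and lgc-24).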
